A study of Mus musculus with 5 samples.

Results

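A set of 10 transcription factors of the epithelial-mesenchymal transition (EMT) were followed in thyroid tumor cell lines of mice. They were chosen by gene symbol, as 7 factors of the mesenchymal side (Zeb1, Zeb2, Snai1, Snai2, Twist1, Twist2 and Prrx1) and 3 of the epithelial side (Grhl2, Ovol1 and Ovol2), out of 17923 genes listed in at least 1 library. All 10 were listed, and all 10 passed the filter on low counts. Background knowledge of these proteins is as follows. In EMT, epithelial cells lose junctions and polarity and take on a mesenchymal form. SNAI and ZEB proteins are zinc finger repressors that bind E-box sequences in the promoters of E-cadherin and other junction genes, TWIST proteins are basic helix-loop-helix factors that pair with E proteins, and PRRX1 is a homeodomain protein of mesenchyme. GRHL2 activates junction genes, and the OVOL zinc finger proteins repress Zeb1 and other mesenchymal genes, so that both sides inhibit each other.
RNA was sequenced from lines driven by BRAFV600E in thyroid tumor tissue, either with intact Ctnnb1, the gene of β-catenin (BVE-Ctnnb1wt, 2 libraries, called wt here), or with Ctnnb1 deleted (BVE-Ctnnb1null, 3 libraries, called null here). The wt group is the line BVE at passage 20. Thyroid-stimulating hormone (TSH) was left out for replicate 1 and given for replicate 2. The null libraries came from the lines BVECTN_4 (replicate 1, passage 8, no TSH), BVECTN_4A (replicate 2, passage 11) and BVECTN_5 (replicate 3, passage 7), and for the last 2 of these libraries the labels do not state TSH. The protocol text gives other passage numbers, about 25 for wt and 20 for null, and a medium with 4 mU/mL TSH. Hence wt is 1 line in 2 TSH conditions and each null library has a line name of its own, so the genotype cannot be told apart from line or passage. The promoters that drive the BRAFV600E allele and the deletion are not given in the sources used here, nor are the ages of the mice. P-values measure the spread between these libraries. The libraries held from 29360002 to 30713079 estimated counts. A count of 0 allows up to 3 counts, which was at most 0.102 CPM (reads per library total, scaled alike in all libraries). This limit and the counting intervals below cover counting error only.
Levels are given as FPKM, the authors' value per transcript length and library total, summed over the transcripts of a gene. Ctnnb1 itself had an FPKM of 59.29 and 73.75 in wt replicates 1 and 2 and of 124.58, 196.26 and 117.82 in null replicates 1, 2 and 3. The transcript level of the deleted gene thus went against the label in all 3 null libraries, and the groups are named by their labels throughout. Values per transcript do not separate deleted exons from the rest. Of the thyroid markers, Nkx2-1, a transcription factor of thyroid and lung, had an FPKM of 9.21 and 15.02 in wt, against 9.26, 34.83 and 0.26 in null replicates 1, 2 and 3. Pax8, its partner in thyroid cells, had 0.40 and 0.17 in wt, against 18.15, 12.78 and 2.56 in the null libraries. Tg, the thyroglobulin gene, which defines thyroid follicular cells, had an FPKM of at most 0.86 in any library.

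The levels of most of the 10 factors differed more among the null lines than between the groups. Null replicate 1 had almost none of Zeb1, Twist1 and Prrx1 and the highest levels of Grhl2, Ovol1 and Ovol2. Null replicate 2 showed the converse, with high Zeb1 and Zeb2 and at most 1 count for each epithelial-side factor. Null replicate 3 had high mesenchymal-side factors and also measurable Grhl2 and Ovol2. Both wt libraries had high Twist1, Twist2 and Snai1 with little Grhl2 or Ovol2. Summed over the 7 mesenchymal-side factors, the FPKM was 94.32 and 100.78 in wt, against 11.68, 81.32 and 139.03 in null replicates 1, 2 and 3. The sum over the 3 epithelial-side factors was 0.22 and 0.49 in wt, against 9.70, 0.01 and 1.74 in the null libraries. For each sum the wt values lay inside the range of the null values, and a two-sided exact permutation test of the groups gave p = 0.7 for each. With 2 libraries against 3, no p under 0.1 can be reached. In bulk RNA, fewer cells of a type and less RNA per cell cannot be told apart, and this applies to all levels below.

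**Figure D1:**
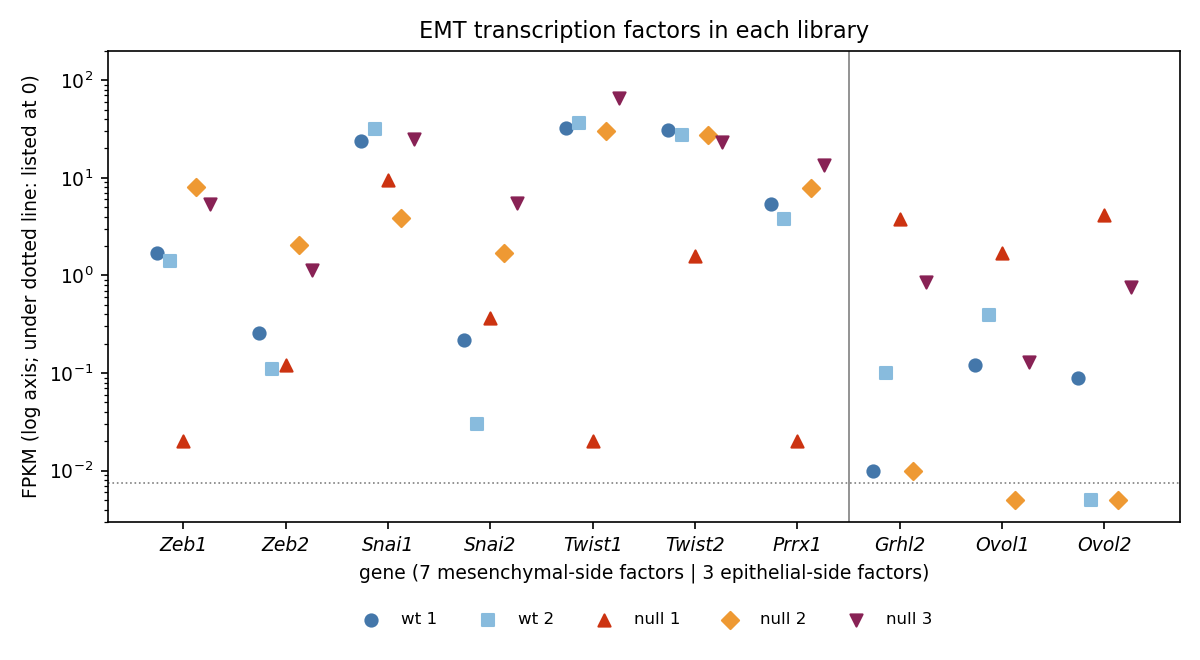
FPKM of each of the 10 factors (log axis) in the 5 libraries, with 1 point per library and points under the dotted line listed at 0. Null replicate 1 (red triangles) lies at 0.02 for Zeb1, Twist1 and Prrx1 and above all other libraries for Grhl2, Ovol1 and Ovol2.

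Among the zinc finger repressors, Zeb1 had an FPKM of 1.70 and 1.39 in wt, against 0.02, 8.09 and 5.36 in null replicates 1, 2 and 3. The value of null replicate 1 rested on 3 counts, against 1400 in null replicate 2, and the wt libraries lay between the null libraries. Its relative Zeb2 had 0.26 and 0.11 in wt, against 0.12, 2.04 and 1.15 in the null libraries. Zeb2 was thus highest in the same 2 null libraries as Zeb1, and null replicate 1 lay between the wt values. Whether counting used strand is not given in the sources used here, so reads of Zeb2 and of its antisense neighbour Zeb2os cannot be told apart. Snai1, which encodes Snail, had 23.61 and 31.79 in wt, against 9.54, 3.87 and 25.08 in the null libraries. It was lowest in null replicate 2, the library with the highest Zeb1, and was the highest of the 10 factors in null replicate 1. Snai2, which encodes Slug, had 0.22 and 0.03 in wt, against 0.37, 1.70 and 5.56 in the null libraries. All 3 null libraries were above both wt libraries for Snai2, where the wt values rested on 14 and 2 counts and that of null replicate 1 on 23. The estimated counts of Snai2 and Zeb2, and those of Zeb1 in the null libraries, were not whole. Reads shared with other transcripts may thus be divided in them.
Twist1 showed the widest range of the mesenchymal-side factors, with 32.51 and 36.12 in wt, against 0.02, 30.36 and 65.00 in null replicates 1, 2 and 3. In null replicate 1 this was 1 count (95% Poisson interval 0.025 to 5.57), against 3186 in null replicate 3. Twist2, the closely related factor, had 30.63 and 27.59 in wt, against 1.59, 27.44 and 23.39 in the null libraries. Unlike Twist1 it was still detected in null replicate 1, with 62 counts. Every null library was below both wt libraries for Twist2, by 0.15 FPKM in the case of null replicate 2. Prrx1 had 5.39 and 3.75 in wt, against 0.02, 7.82 and 13.49 in the null libraries, where the value of null replicate 1 rested on 3 counts. Its counts came from 3 transcripts of 4098, 4911 and 4983 bases. The longest had the highest FPKM of the 3 in both wt libraries (2.10 and 2.34) and in null replicate 3 (7.31), while in null replicate 2 that of 4911 bases did (3.07). The other 6 mesenchymal-side factors were each listed with a single transcript.
On the epithelial side, Grhl2 had 0.01 and 0.10 in wt, against 3.82, 0.01 and 0.85 in null replicates 1, 2 and 3. The counts behind these values were 2 and 16 in wt, against 574, 1 and 125 in null, so null replicates 1 and 3 stood above the other libraries beyond counting error. Ovol2 was likewise highest in null replicate 1 and next in null replicate 3, with 0.09 and 0 in wt, against 4.19, 0 and 0.76 in the null libraries. In wt replicate 2 and null replicate 2 it had 0 counts. The shorter of its 2 transcripts, of 1214 bases, was listed in null replicate 1 alone, at 1.29. Ovol1 had 0.12 and 0.39 in wt, against 1.69, 0 and 0.13 in the null libraries. For Ovol1, null replicate 3 stayed within the wt range, with 11 counts.
Within the wt libraries the order of the levels was Twist1 with 34.3 ± 2.55 (SD, n = 2), Twist2 with 29.1 ± 2.15 and Snai1 with 27.7 ± 5.78, and neighbours in this order did not differ beyond their spread, except that the wt values of Twist1 were both above those of Twist2. Prrx1 (4.57 ± 1.16) and Zeb1 (1.54 ± 0.219) followed, and the other 5 factors (Ovol1, Zeb2, Snai2, Grhl2 and Ovol2) were each under 0.40 in both libraries, with neighbours in this order overlapping. Twist1 also ranked first in null replicates 2 and 3. In null replicate 1 the order was Snai1, Ovol2, Grhl2, Ovol1 and Twist2. Between wt replicate 1 without and wt replicate 2 with TSH, the 95% Poisson intervals of the counts were apart for 7 of the 10 factors. The share over all genes was not computed, so 7 of 10 is not a result about the factors. Snai1, Twist1, Grhl2 and Ovol1 had the higher count in wt replicate 2, and Zeb2, Snai2 and Prrx1 in wt replicate 1. With 1 library for each condition this compares these libraries and not TSH.

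Null was set against wt by the quasi-likelihood test of edgeR over 13240 genes with Benjamini-Hochberg adjustment over all of them. Of the 10 factors, 0 passed an adjusted p of 0.05 in either direction, beside 0.0% of all genes tested in each direction. At an unadjusted p under 0.05, 1 factor (Snai2) was higher in the null libraries and 0 were lower, beside 12.4% and 6.07% of all genes. DESeq2 also called Snai2 alone among the 10, with an adjusted p = 0.0469, beside 8.41% of all genes called higher and 3.68% called lower by that tool. For Snai2 the log2 fold change was 3.77 (standard error 1.49, edgeR adjusted p = 0.253), and its adjusted p was between 0.0469 and 0.841 over all fits. For Snai1 it was -1.72 (standard error 0.77, edgeR adjusted p = 0.289). Grhl2 had 4.16 (standard error 2.24, edgeR adjusted p = 0.354) and Ovol2 had 4.64 (standard error 2.55, edgeR adjusted p = 0.361). In wt replicates 1 and 2, Grhl2 had 2 and 16 counts, Ovol2 had 4 and 0, and Snai2 had 14 and 2. Snai2, Grhl2 and Ovol2 passed the count filter only with the null libraries, where they were higher. No conclusion is drawn from their fold changes or calls. The log2 fold change was 1.94 for Zeb2, 0.90 for Zeb1, 0.71 for Ovol1, 0.03 for Prrx1, -0.76 for Twist1 and -1.37 for Twist2. The median of the 7 mesenchymal-side factors was 0.03. That of the 3 epithelial-side factors was 4.16, which is the value of Grhl2 and has the same limit. The median of all genes tested was 0.29. This background depended on the scale, with a median over 11797 shared genes of 0.21 in edgeR, 0.13 in DESeq2 and 0.61 in limma on log2(FPKM + 0.1). The sign of Prrx1 also changed between these scalings.
All 3 null libraries were above both wt libraries for 1 of the 10 factors, Snai2, and below both for 1, Twist2. The shares over all genes tested were 35.9% above and 7.22% below. Leaving out null replicate 1 changed the log2 fold change of Ovol1 to -2.70 (it was -0.034 without wt replicate 1) and lowered those of Grhl2 and Ovol2 to 2.10 and 2.41. That of Grhl2 was 6.33 without wt replicate 2, where the wt side rested on 2 counts. Without wt replicate 1 the wt side of Ovol2 had 0 counts, so its fitted value there depends on the prior count and is not given. Snai2 lay between 2.46 (without null replicate 3) and 5.52 (without wt replicate 1, with 2 counts on the wt side). Zeb1 lay between 0.10 (without null replicate 2) and 1.46 (without null replicate 1), and Zeb2 between 1.09 (without null replicate 2) and 2.45 (without wt replicate 1). Snai1 was at -2.65 and Twist1 at -1.83 without null replicate 3. Without null replicate 1, Twist1 was at -0.21 and Twist2 at -0.86. Prrx1 lay between -0.85 (without null replicate 3) and 0.57 (without null replicate 1).

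**Figure D2:**
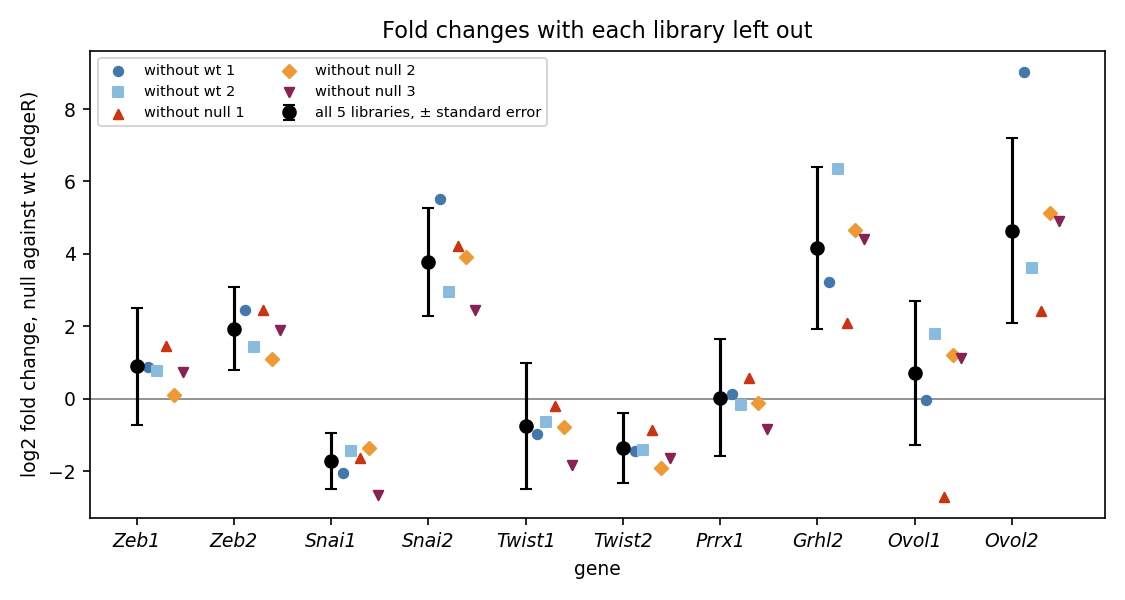
Log2 fold change of each factor, null against wt, from edgeR. Black points are the fit of all 5 libraries with its standard error, and colored points are the fits with 1 library left out. The point of Ovol2 without wt replicate 1 rests on 0 wt counts and has no meaning as a fold. Ovol1 lies at 0.71 with all libraries and at -2.70 without null replicate 1.

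The epithelial target genes, 25 genes of junctions, keratins and apical proteins, followed Grhl2 and Ovol2 in the order of the null libraries for 24 of 25, that is replicate 1, then 3, then 2 (17.1% of the 10827 genes with a mean FPKM of at least 1). The exception was the keratin gene Krt8 (chosen after its values were seen), with 1797.70, 230.48 and 201.48 in null replicates 1, 2 and 3. All 25 were highest in null replicate 1, beside 28.3% of the 10827 genes with a mean FPKM of at least 1, and 21 of 25 were lowest in null replicate 2, beside 14.5%. Null replicate 3 was above both wt libraries for 22 of 25 (63.1% of the 10827 genes). Cdh1, which encodes E-cadherin, had an FPKM of 1.94 and 1.62 in wt, against 135.74, 0 and 20.92 in null replicates 1, 2 and 3. No count of Cdh1 was listed in null replicate 2, against 18168 in null replicate 1. The epithelial adhesion gene Epcam had 5.04 and 4.61 in wt, against 152.05, 0 and 59.60 in the null libraries. Esrp1, an epithelial splicing regulator, had 0.59 and 0.54 in wt, against 16.15, 0.01 and 4.31 in the null libraries. For these 3 genes the wt libraries lay between null replicates 2 and 3. Krt7, a keratin of simple epithelia with the highest mean of the list, had 79.65 and 123.98 in wt, against 5130.95, 110.97 and 461.30 in the null libraries. Keratin transcripts thus remained in null replicate 2, where Krt7 lay between the wt values, while 14 of the 25 genes were at or under 3 counts there. For 1 of the 25, Tjp3 of tight junctions, the 3 null values all exceeded both wt values (35.9% of all genes), with 0.64 and 0.80 in wt, against 25.17, 0.94 and 1.71 in null. In edgeR 0 of the 25 passed an adjusted p of 0.05. At an unadjusted p under 0.05 there were 0, beside 12.4% higher and 6.07% lower of all genes. DESeq2 called 2 higher, Dsp of desmosomes (chosen after its values were seen) and Krt7, beside 8.41% of all genes. The median log2 fold change was 3.65, and 0.75 over the 23 genes that passed the count filter without null replicate 1. With limma it was 1.58, 0.96 and 1.62 on log2 of the FPKM plus 0.1, 0.01 and 1.

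**Figure D3:**
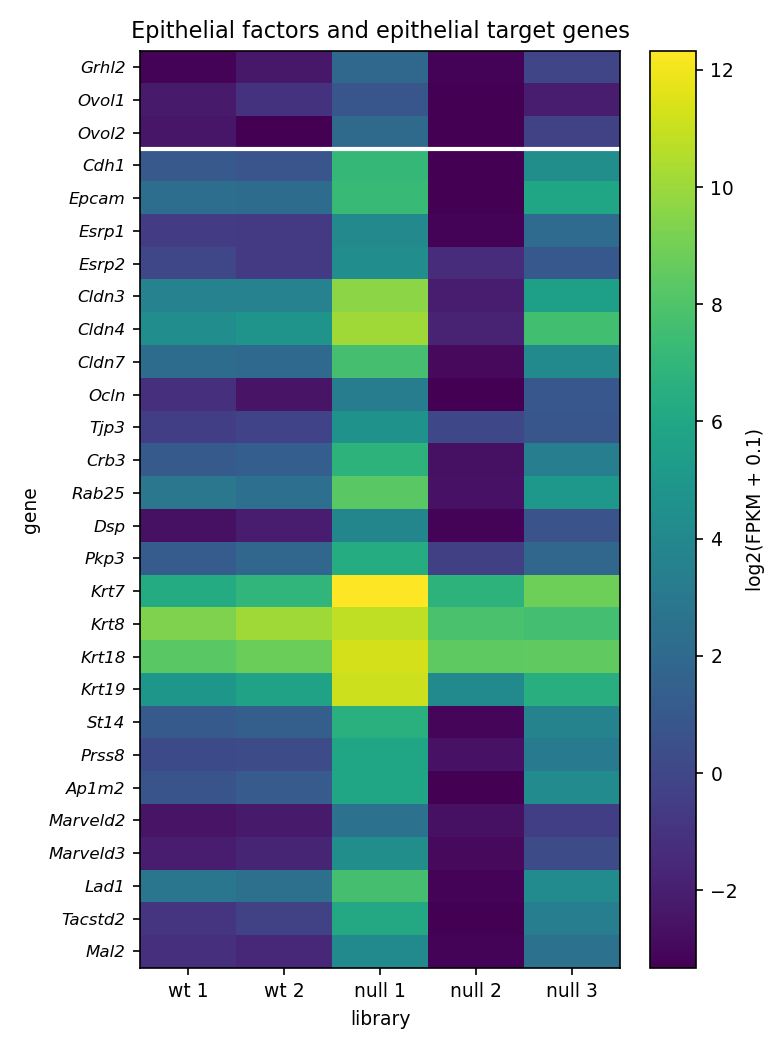
Heat map of log2(FPKM + 0.1) for Grhl2, Ovol1 and Ovol2 (above the white line) and the 25 epithelial target genes in the 5 libraries. The column of null replicate 1 is the brightest for all 25 genes, with Cdh1 at an FPKM of 135.74, and that of null replicate 2 is the darkest for 21.

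The 20 mesenchymal target genes did not mirror this in full. Of the 20, 10 were lowest in null replicate 1, beside 19.1% of the 10827 genes with a mean FPKM of at least 1. In null replicate 3, 12 were highest (27.7% of the 10827 genes). Vim, which encodes the intermediate filament vimentin, had an FPKM of 1477.77 and 3405.92 in wt, against 85.10, 2864.06 and 1401.23 in null replicates 1, 2 and 3. It was lower in null replicate 1 than in any other library but was still abundant there. Fn1, the fibronectin gene, went another way, with 122.52 and 87.72 in wt, against 233.88, 387.43 and 462.60 in null. All 3 null libraries were above both wt libraries for Fn1. Cdh2, which encodes N-cadherin, had 4.61 and 3.89 in wt, against 9.66, 16.37 and 4.05 in null, so that the groups overlapped. Tnc, the tenascin C gene, had 0.19 and 0.25 in wt, against 7.71, 3.50 and 11.46 in null, all above wt. Its log2 fold change of 4.52 (standard error 0.76) had an adjusted p = 0.180 in edgeR and of 1.72e-07 in DESeq2. Cdh11, a cadherin of mesenchyme, and Cd44, a hyaluronan receptor, also had all null values above wt, with log2 fold changes of 3.41 and 1.32. In the whole list, 5 of the 20 had all null values above both wt values, beside 35.9% of all genes tested. For 1 of the 20 all were below, beside 7.22%. Mmp2, a matrix protease, had 80.88 and 77.92 in wt, against 7.87, 51.09 and 5.65 in null, with a log2 fold change of -2.50. In edgeR 0 of the 20 passed an adjusted p of 0.05, with 4 higher and 1 lower at an unadjusted p under 0.05, beside 12.4% and 6.07% of all genes. DESeq2 called 2 higher, Tnc and Cdh11, beside 8.41%. The same shares apply to the counts of the lists below. The median log2 fold change was 0.38, and with 1 library left out it ran from -0.46 (without null replicate 3) to 0.69 (without null replicate 1). It was negative with limma at each pseudocount, at -0.40 on log2(FPKM + 0.1).

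**Figure D4:**
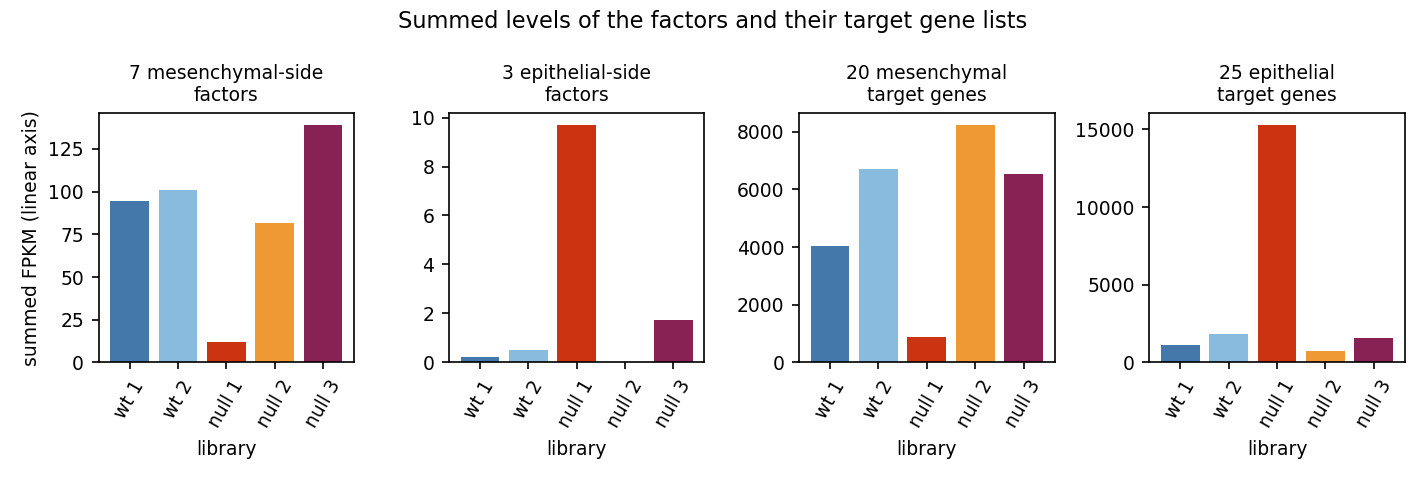
Summed FPKM (linear axes, each starting at 0) of the 7 mesenchymal-side factors, the 3 epithelial-side factors, the 20 mesenchymal and the 25 epithelial target genes, with 1 bar per library. Null replicate 1 has the lowest bar for both mesenchymal sums (11.68 and 892.55) and the highest for both epithelial sums (9.70 and 15289.28).

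E-box sequences in the promoters of these genes are shown, since SNAI and ZEB proteins are known to bind the letters CACCTG. Promoters were those of RefSeq (build GRCm38.p6), cut to the 250 bases before the annotated start. The letters CACCTG on either strand (read as CACCTG or CAGGTG) were found for 11 of the 15 epithelial target genes with an entry, beside 19.4% of 27025 genes with an entry. Since the list was chosen as target genes of EMT factors, its share is no independent result. Of the members 6 had an entry (Zeb2, Snai1, Twist1, Twist2, Prrx1 and Ovol2), and Snai1 alone held the letters. The promoters of Zeb1, Snai2, Grhl2, Ovol1 and Cdh1 were not analysed here. The letters CACGTG, another E-box spelling, were found for 1 of the 15 and 0 of the 6, beside 6.86% of all genes. A match describes the letters and no binding was measured. The promoters of Snai1 (chr2:167537945-167538194, + strand), Epcam (chr17:87635729-87635978, + strand), Cldn4 (chr5:134946935-134947184, - strand) and Crb3 (chr17:57061951-57062200, + strand, the first of its 2 starts) are given 5′ to 3′, as the member and 3 epithelial genes that hold the letters, with the E-box letters in capitals. Cldn4, a claudin gene, and Crb3, an apical polarity gene, were chosen after their values were seen.
Snai1: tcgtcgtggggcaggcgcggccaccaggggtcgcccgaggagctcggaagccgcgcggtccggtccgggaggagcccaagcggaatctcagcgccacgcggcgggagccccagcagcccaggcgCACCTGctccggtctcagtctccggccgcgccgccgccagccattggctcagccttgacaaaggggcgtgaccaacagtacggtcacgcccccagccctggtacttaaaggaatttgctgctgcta
Epcam: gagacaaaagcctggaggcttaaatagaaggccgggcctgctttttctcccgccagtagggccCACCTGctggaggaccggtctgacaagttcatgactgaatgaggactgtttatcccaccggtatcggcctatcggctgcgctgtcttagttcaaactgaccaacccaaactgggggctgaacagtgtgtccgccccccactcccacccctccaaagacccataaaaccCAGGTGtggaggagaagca
Cldn4: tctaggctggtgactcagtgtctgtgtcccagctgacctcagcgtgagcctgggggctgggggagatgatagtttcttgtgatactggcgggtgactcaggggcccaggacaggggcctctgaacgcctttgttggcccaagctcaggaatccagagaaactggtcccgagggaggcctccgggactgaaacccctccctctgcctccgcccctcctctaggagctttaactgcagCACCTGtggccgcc
Crb3: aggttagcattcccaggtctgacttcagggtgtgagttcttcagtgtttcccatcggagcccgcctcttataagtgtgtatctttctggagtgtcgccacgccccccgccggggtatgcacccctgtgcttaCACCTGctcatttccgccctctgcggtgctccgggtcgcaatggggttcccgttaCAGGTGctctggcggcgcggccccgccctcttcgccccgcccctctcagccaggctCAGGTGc
The E-box of Snai1 begins 126 bases before the start. Those of Epcam begin 187 and 19 bases, that of Cldn4 14 bases, and those of Crb3 118, 63 and 7 bases before it. Cldn4 had an FPKM of 20.25 and 27.82 in wt, against 1086.62, 0.19 and 194.09 in null replicates 1, 2 and 3, and Crb3 had 2.08 and 2.45 in wt, against 111.64, 0.06 and 10.14 in null. Both genes ranked the null libraries as Epcam did. The genes of the list with an entry but without the letters (Cldn3, Dsp, Lad1 and Marveld2) ranked them so too. Krt8 held the letters and did not. Snai1, with the same letters in its promoter, was low in null replicate 2 and also lower in null replicate 1 than in wt. Whether the letters bear on these levels was not tested.

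Other factors linked to EMT, a list of 10 genes, had 8 of 9 tested genes with a positive log2 fold change (59.3% of all genes tested had one), and 0 of the 9 passed an adjusted p of 0.05 in edgeR (1 at an unadjusted p under 0.05, and 1 with DESeq2). Sox4, a SOX family factor, had an FPKM of 6.44 and 3.24 in wt, against 65.73, 38.73 and 32.33 in null, and a log2 fold change of 2.71 (error 0.60, edgeR adjusted p = 0.180, DESeq2 adjusted p = 0.000985). All 3 null libraries were above both wt libraries for Sox4. Hmga2, a chromatin protein with the highest mean of the list, had 24.22 and 5.96 in wt, against 102.42, 158.41 and 12.14 in null, and the groups overlapped. The median log2 fold change was 2.71, and 0.85 over the 7 genes that passed the count filter without null replicate 1. It was 1.16 over 7 genes with limma on log2(FPKM + 1) and 1.54 over the 6 genes left when 10 counts were required in each library.
Among 7 genes of E proteins, the partners of TWIST, and of Id proteins, which bind E proteins and keep them from DNA, 0 passed in edgeR (1 at an unadjusted p under 0.05), and DESeq2 called 1. That gene was Id2, with 0.97 and 1.21 in wt, against 53.07, 9.85 and 10.56 in null, a log2 fold change of 3.95 (standard error 1.07, edgeR adjusted p = 0.191). Id2 was highest in null replicate 1. Id4 had 0.32 and 0.23 in wt, against 1.69, 1.07 and 1.06 in null, and Tcf3, the gene of E12 and E47, had 26.32 and 23.97 in wt, against 51.02, 52.45 and 36.65 in null. Id3, with the highest mean of the list, had 25.27 and 65.03 in wt, against 42.87, 136.48 and 104.88 in null, so that the groups overlapped.
Of 15 genes for corepressors that SNAI and ZEB proteins recruit and for the turnover of these proteins, 12 had every null library above both wt libraries (35.9% of all genes did). In edgeR 0 passed an adjusted p of 0.05 and 5 were higher at an unadjusted p under 0.05, and DESeq2 called 2, Suz12 and Fbxl14. The median log2 fold change was 1.06, and 1.60 and 1.61 with limma on log2 of the FPKM plus 0.1 and 0.01. Suz12, of the Polycomb repressive complex that methylates histone H3, had 0.50 and 0.44 in wt, against 2.13, 7.54 and 4.42 in null (log2 fold change 2.71, edgeR adjusted p = 0.191). Sin3a, a corepressor scaffold, had 2.56 and 2.29 in wt, against 6.91, 15.34 and 9.39 in null. Fbxl14 and Fbxo45, F-box genes whose proteins mark EMT factors for degradation, had log2 fold changes of 2.16 and 1.97. Hdac1, a histone deacetylase with the highest mean of the list, had 42.87 and 44.54 in wt, against 33.48, 106.40 and 48.74 in null, so that the groups overlapped. Of the 15 genes, 12 were lower in null replicate 1 than in null replicate 2, as Zeb1 and Twist1 were. The share was 55.8% over the 10827 genes with a mean FPKM of at least 1. Against wt the likeness ended. In null replicate 1, 13 of the 15 were above both wt libraries (58.6% of the 10827 genes), while Zeb1 and Twist1 were below both.
Other epithelial factors, a list of 11 genes of which 8 were tested, were called 0 times in edgeR (2 higher at an unadjusted p under 0.05). DESeq2 called 2, Foxa1 and Trp63. Both had 4 counts or fewer in each wt library and passed the count filter through the null libraries, so no conclusion on the list is drawn from these calls. All 10 that were listed were above both wt libraries in null replicate 1, beside 58.6% of the 10827 genes. Elf3, an ETS factor of epithelia, had 8.0 and 9.06 in wt, against 65.12, 2.49 and 6.17 in null. Foxa1, a forkhead factor of endoderm, had 0 and 0.04 in wt, against 2.26, 0.34 and 1.03 in null, with 0 and 4 counts behind the wt values. Klf4, a zinc finger factor of differentiated epithelia, had 2.01 and 1.36 in wt, against 4.33, 2.70 and 3.54 in null. Trp63, the p63 gene of basal epithelia, had 0 counts in both wt libraries, against 7, 18 and 279 in null replicates 1, 2 and 3, which is at least 35.1-fold higher against 3 counts per wt library, and at least 4.32-fold without null replicate 3. The median log2 fold change was 1.92, also with Trp63 at this bound, and -0.054 over the 7 genes that passed the count filter without null replicate 1. It was 1.02 over 5 genes with limma on log2(FPKM + 0.1) and 0.93 over the 4 genes left when 10 counts were required in each library.
TGF-β signaling induces Snai1, Zeb1 and Zeb2 in many epithelia. Of 10 genes for its ligands, receptors and SMAD proteins, 6 had every null library above both wt libraries (35.9% of all genes did). In edgeR 0 passed an adjusted p of 0.05 and 3 were higher at an unadjusted p under 0.05, and DESeq2 called 2, Tgfbr1 and Smad3. Tgfbr1, the type I receptor gene, had 0.08 and 0.20 in wt, against 0.98, 4.20 and 2.61 in null, and a log2 fold change of 3.55 (error 0.95, edgeR adjusted p = 0.191). Smad3, which carries the signal to the nucleus, had 7.73 and 4.25 in wt, against 62.12, 35.23 and 23.46 in null. Smad3 was highest in null replicate 1, the library with the lowest Zeb1. The ligand gene Tgfb1 had 73.23 and 67.73 in wt, against 165.66, 67.44 and 23.82 in null, and Tgfb2 had 1.41 and 1.24 in wt, against 2.70, 5.77 and 8.28 in null. Smad7, an inhibitor of the pathway, had 2.42 and 1.28 in wt, against 5.84, 5.43 and 4.22 in null. The median log2 fold change of the list was 0.80, and 0.46 without wt replicate 2 and 0.44 without null replicate 3. Over 9 genes with limma it was higher, at 1.20 and 1.24 on log2 of the FPKM plus 0.1 and 0.01. The genes of the miR-200 family and of miR-205, which repress Zeb1 and Zeb2, and Mir205hg were not listed in any library. Since the annotation used is not given, this does not show that they were absent.

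Markers of other cell types differed between the libraries too. The 9 fibroblast markers summed to an FPKM of 14.06 and 12.08 in wt, against 0.46, 41.78 and 343.02 in null replicates 1, 2 and 3. The order was the same for Prrx1, and the part of this in its levels was not tested. In null replicate 3, 8 of the 9 were above both wt libraries (63.1% of the 10827 genes were), and the most abundant was Postn, the periostin gene, at 101.56. Postn had 0 counts in both wt libraries, against 12 and 2 counts in null replicates 1 and 2. In null replicate 2, with the highest Zeb1, 4 of the 9 were above both wt libraries (60.9% of the 10827 genes) and 5 were at or under 3 counts. Its most abundant markers were Pdgfrb at 20.80 and the fibrillin gene Fbn1 at 17.95, which was 4.78 and 4.13 in wt. Dcn and Thy1 had 3 counts each in null replicate 2 and from 3 to 13 in wt, against 4686 and 4571 in null replicate 3. Pdgfrb also led the list in both wt libraries, at 5.22 and 5.06. In null replicate 1, 6 of the 9 were at or under 3 counts. Of the 6 leukocyte markers, Ptprc, Adgre1 and Cd3e were not listed in any library, and Cd68, a lysosomal protein gene, led with 6.09 and 14.20 in wt, against 59.81, 1.00 and 39.91 in null. The 5 endothelial markers summed to at most 0.68 (null replicate 3, where Kdr led), the 4 skeletal muscle markers to at most 4.25 (Des in each library, with Myod1 at 6 counts or fewer) and the 4 markers of parafollicular cells to at most 2.18, with Calca leading in the wt libraries. The 10 thyroid markers summed to 15.27 and 20.63 in wt and to 35.18, 68.54 and 4.83 in null.
The genes whose pattern over the 5 libraries was most like that of Twist1, the mesenchymal-side factor with the highest mean, were Rpl36a, Rpl23a and Hacd1, with Pearson correlations of log2(FPKM + 0.1) of 0.996, 0.996 and 0.994. Of 7313 genes compared, 8 reached 0.99. For Ovol2, the epithelial-side factor with the highest mean, they were Ltc4s, Slc2a8 and Sik1, with 0.998, 0.996 and 0.995, and 16 of 7314 genes reached 0.99. With 5 libraries, of which 2 are of 1 line, these values only describe the pattern. Rpl36a had its lowest value in the same library as Twist1, with 1448.22 and 1346.84 in wt, against 373.64, 1435.11 and 1826.93 in null.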

How the data were processed

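RNA of 2 BVE-Ctnnb1wt and 3 BVE-Ctnnb1null libraries was sequenced by the authors (Illumina TruSeq libraries). Per the file headers, the deposited values for each RefSeq transcript are an expected count (estimated, so fractions occur) and an FPKM, the lowest listed being 0.01. Aligner, counter, build and annotation are not given in the sources used here. Both values were summed per NCBI gene number, and counts were rounded. Of 17923 genes, 17866 matched a symbol in RefSeq (GRCm38.p6). The main test was edgeR 4.0.16 in R 4.3.3 (TMM, filterByExpr, glmQLFit and glmQLFTest, Benjamini-Hochberg, threshold 0.05), with standard errors taken as the log2 fold change over the root of F. Alternatives were DESeq2 1.42.0, other count filters, limma 3.58.1 on log2 FPKM plus 0.1, 0.01 or 1 (genes with an FPKM of 0.5 or more in 2 libraries, and the 10 factors), leaving out each library, and the replicate number as a block. The fits were tested on simulated data. Sums and single genes were compared by exact permutation (Python 3.11.15, scipy 1.17.1).
Samples were grouped by their labels. The 10 factors and all lists were chosen with earlier results of these data known. Named are the factors and, from each list, the gene with the highest mean FPKM and up to 4 with the largest change among those whose groups do not overlap and whose higher group has a mean FPKM of at least 1. Cdh1, Epcam, Esrp1, Vim, Fn1, Cdh2 and Ctnnb1 were always named, and up to 3 genes most like Twist1 and Ovol2 among those with a mean FPKM of at least 5. Marker genes named beside the label checks, and genes so marked, were chosen after their values were seen. Genes that the rule names but the text leaves out are not reported here.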

Additional observations from a re-analysis of the deposited data

How the results depend on the processing

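Of 113 values of the 10 factors under 12 alternative settings, 98 kept the sign of the main value and 1 passed an adjusted p of 0.05, that of Snai2 with DESeq2 (log2 fold change 3.70). A kept sign did not mean a kept size. Twist1, at -0.76, was at -2.47, -3.14 and -1.46 with limma on log2 FPKM plus 0.1, 0.01 and 1. With limma plus 1, Snai2 was at 1.37, Zeb2 at 0.72, Grhl2 at 0.98 and Ovol2 at 1.00. Grhl2 and Ovol2 were at 2.32 and 2.38 with limma plus 0.1. Genes over the whole table called higher numbered 0 in edgeR, 1113 with DESeq2 and 1 with limma at each of the 3 pseudocounts. Those called lower numbered 0 in edgeR, 487 with DESeq2, 4 with no filter on low counts, 1 with at least 10 counts in every library, and 5, 3 and 7 with limma on log2 FPKM plus 0.1, 0.01 and 1. Both counts were 0 without any single library. The sign of Prrx1, at 0.03, changed with DESeq2 (-0.0592), without the filter (-0.0152) and with limma plus 0.1, 0.01 and 1 (-0.97, -1.62 and -0.12), and it was between -0.85 and 0.57 with 1 library left out. That of Ovol1 changed with limma plus 0.01 (-0.77), with a range from -2.70 to 1.80 with 1 library left out, and that of Zeb1 with limma plus 0.01 (-0.50). The median of the epithelial-side factors became 0.98 with limma plus 1. The median of all 10 factors, 0.81, became -0.64 with limma plus 0.01 and -1.35 with at least 10 counts in every library, a filter that leaves 3 factors. The causes of the other shifts were not tested. The median of the mesenchymal-side factors, 0.03, was -0.0592 with DESeq2, -0.0152 without the filter, -0.97, -1.49 and -0.12 with limma plus 0.1, 0.01 and 1, and -1.35 over the 3 factors left by at least 10 counts in every library. With 1 library left out, the median ran from -0.85 to 0.57 for the mesenchymal-side and from 2.10 to 4.65 for the epithelial-side factors. Factors at 3 counts or fewer in a library are at the limit of the depth.
The replicate number as a block left 1 residual degree of freedom. In that fit the log2 fold changes of Zeb1, Prrx1 and Ovol1 were -2.19, -3.57 and -0.998. Those of Twist1, Twist2 and Snai1 were -4.99, -2.68 and -2.73. For Snai2, Zeb2, Grhl2 and Ovol2 they were 2.48, 0.97, 1.94 and 4.86. The median of all 10 factors was -1.59 (-2.68 for the mesenchymal and 1.94 for the epithelial side), and 0 genes were called in each direction. The replicate numbers were not taken to pair the libraries. Both replicates 1 are labelled as without TSH, TSH is not stated for null replicate 2, and the deviations of same-numbered libraries from their group means had correlations of -0.11 for replicate 1 and -0.11 for replicate 2.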
